A study of Mus musculus with 16 samples.

Results

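The comparison described here is between the CCR2+ and CCR2- sort labels within RbpjiΔEC mice. It rests on the 4 arrays titled TAM CCR2+ RbpjiΔEC and the 4 titled TAM CCR2- RbpjiΔEC, which are 8 of the 16 arrays of the series and were chosen by their titles alone. TAM stands for tumour-associated macrophage. The mice were C57BL/6N females that received a single oral dose of 1 mg tamoxifen at 8 to 12 weeks of age. After a further 3 weeks, ID8-luc cells, a luciferase-marked mouse ovarian cancer line, were placed in the peritoneal cavity, and the tumours grew for 4 weeks. All 8 arrays share the genotype RbpjiΔEC, an inducible deletion in endothelial cells of Rbpj, which encodes the DNA-binding factor of Notch signalling, and the sources used here do not name the promoter that drives the recombinase. Cells rinsed from the cavity were sorted on CD45, CD11b and F4/80 and then divided by CCR2, the receptor for the monocyte chemoattractant CCL2. The titles do not say whether the numbered arrays are separate mice, and if they are not, the p-values rest on a spread that may be technical.

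As background, the mouse peritoneal cavity holds large peritoneal macrophages, a self-maintaining resident population that depends on GATA6 and retinoic acid, and small peritoneal macrophages, which derive from CCR2-bearing monocytes and present antigen on MHC class II. It also holds many B cells. The innate-like B-1 cells of the cavity can carry CD11b on their surface. Large peritoneal macrophages are known for taking up dying cells, for making coagulation factors and for lipid mediators of resolution.

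The deposited values were linear probe set intensities, and the columns of the 2 labels differed in kind. The CCR2+ columns had array means of 821 to 823 and the CCR2- columns of 526 to 595. In the CCR2- columns 100% of the values became whole numbers after multiplication by some divisor up to 22, to within 0.001. In the CCR2+ columns that share was 2.62% to 2.91%. The label and the scaling therefore cannot be told apart. Values below are log2 intensities after quantile normalization over the 8 arrays, which forces all arrays onto 1 distribution. Arrays of the same label correlated at 0.98 to 0.993 and arrays of different labels at 0.846 to 0.867. The first principal component, which separated the labels, held 85.3% of the variance. A bacterial trp control that mouse RNA should not bind read at most 6.69, and where the mean of the lower label lies at or under that reading the difference is stated as a bound against it. Comparisons between genotypes or between settings give the fitted differences instead. The number of arrays limits the precision.

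The gate genes were checked first, because they test the labels. Adgre1, which encodes F4/80, read 13.18, 13.04, 13.31 and 13.40 in the CCR2+ arrays and 8.97, 8.84, 9.05 and 9.30 in the CCR2- arrays, a difference of 4.19 (SE 0.121, limma adjusted p = 2.39e-09). Itgam, which encodes CD11b, was higher by 3.43 (SE 0.078). Neither gene overlapped between the labels. Ptprc, which encodes CD45, read 12.78 to 13.31 against 12.83 to 13.08 and did not pass (difference 0.12, SE 0.137, limma adjusted p = 0.536). Its second probe set differed by −1.39.

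Ccr2 transcript did not follow its label. It read 7.78, 8.20, 7.07 and 7.55 in the arrays labelled CCR2+ and 7.54, 10.69, 8.50 and 8.88 in those labelled CCR2-. The groups overlapped, through CCR2- array 1, and the difference of −1.25 did not pass (SE 0.554, limma adjusted p = 0.104). Without CCR2- array 1 it was −1.75 and passed (limma adjusted p = 0.0242), and without CCR2- array 2, which held the 10.69, it was −0.66 and did not (limma adjusted p = 0.176). It also passed with the replicate number as a block (−1.25, limma adjusted p = 0.0316), with array weights (−1.62, 0.0221) and with centring on hybridization controls (−1.15, 0.0366). All 4 Ccr2 probe sets had the lower mean in the arrays labelled CCR2+, by −1.25 to −0.31. Gata6, the transcription factor that defines large peritoneal macrophages, read 12.01, 12.07, 12.00 and 11.75 in the CCR2+ arrays and 7.40, 7.12, 8.36 and 8.20 in the CCR2- arrays. Ms4a1, which encodes the B cell surface protein CD20, read 7.05, 6.86, 7.09 and 6.95 against 13.56, 13.58, 13.52 and 13.60. The labels CCR2+ and CCR2- are therefore used below as names of the deposited columns. Rbpj was deleted in endothelial cells, which the gate does not select, so its level does not check the genotype here. It read 11.74, 11.54, 11.14 and 11.16 against 9.99, 10.46, 10.36 and 10.43, a difference of 1.09 (SE 0.16, limma adjusted p = 0.000368).

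**Figure D1:**
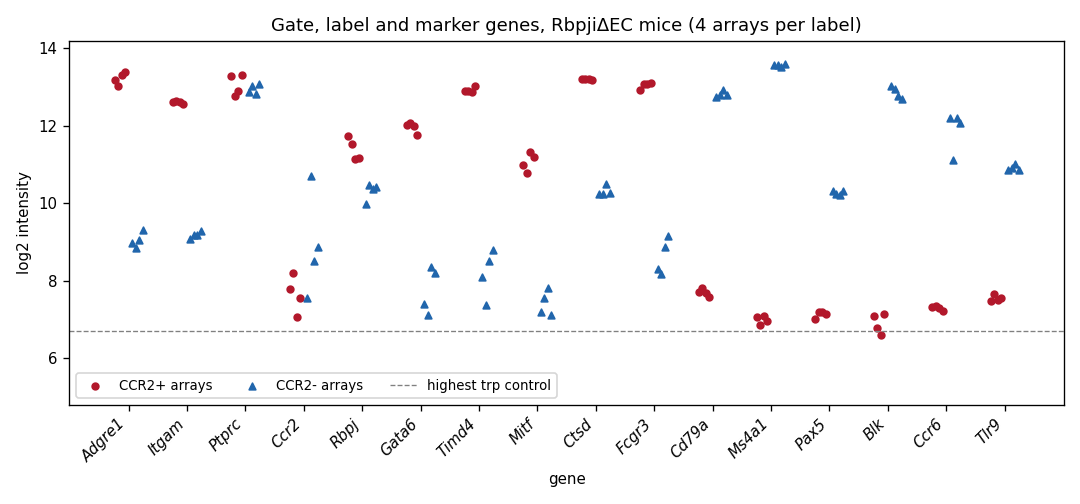
Log2 intensity (y axis) of gate, label and cell type marker genes (x axis) in each of the 4 CCR2+ arrays (circles) and 4 CCR2- arrays (triangles) of RbpjiΔEC mice. The dashed line is the highest reading of the trp control, 6.69. Adgre1, Itgam, Gata6 and Timd4 sit higher in the CCR2+ arrays, Cd79a, Ms4a1 and Pax5 sit higher in the CCR2- arrays, and Ptprc and Ccr2 overlap.

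Of 18194 genes tested with limma, 7098 (39%) passed an adjusted p of 0.05. With the CCR2+ label 3260 genes (17.9%) were higher and 3838 (21.1%) lower. The calls reached 2-fold for 1373 and 1070 genes, 8-fold for 275 and 174, and 16-fold for 110 and 82. The 4 values of each label did not overlap for 6949 genes (38.2%). The median difference over all genes was −0.03, and it was 0.234 without scaling between the columns, so counts by direction stand against these shares and against that shift. Of the genes, 140 lay above the trp reading in all CCR2+ arrays and in no CCR2- array, and 131 showed the opposite pattern. Because the arrays hold bulk RNA, fewer cells of a type and less RNA per cell cannot be told apart in any of these differences.

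**Figure D2:**
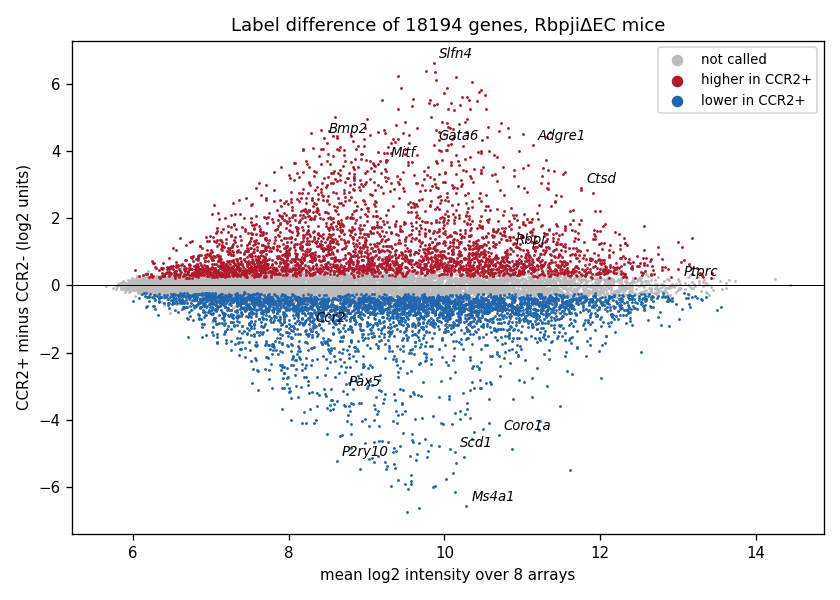
Each point is 1 of the 18194 genes, with the mean log2 intensity over the 8 arrays on the x axis and the CCR2+ minus CCR2- difference in log2 units on the y axis. Coloured points passed limma at an adjusted p of 0.05 (3260 higher, 3838 lower), and labelled genes are described in the text.

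Genes of small peritoneal macrophages and monocytes, the cells that the CCR2 label names, did not gather in 1 label. Of 24 measured members 6 were higher with the CCR2+ label and 8 lower (median −0.18, and 0.15 without scaling). Hp, which encodes haptoglobin, was higher by 4.82 (SE 0.128), and Chil3, a chitinase-like gene of monocytes and alternatively activated macrophages, was at least 3.77 higher. Ms4a4c, a gene of monocytes and lymphocytes, read 7.41, 7.54, 7.48 and 7.65 against 11.06, 11.14, 11.11 and 11.70. Itgax, which encodes the integrin subunit CD11c, differed by −2.38 (SE 0.231). Irf4, which small peritoneal macrophages, B cells and plasma cells use, was well above the trp reading in both labels, at 10.56 to 10.76 against 12.11 to 12.33. By contrast 25 of 27 genes of large peritoneal macrophages were higher and 0 lower (median 4.57). Vsig4, a complement receptor of resident macrophages, read 12.93, 12.92, 13.18 and 13.17 against 6.63, 6.73, 6.60 and 6.83. The CCR2- arrays of Vsig4 lay near the trp reading. Of the 27 genes 25 had no overlap between the labels.

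Genes for complement, for the uptake of dying cells and for lipid handling were higher in the CCR2+ arrays. Of 17 complement genes 10 were higher and 2 lower (median 2.16). C1qc, a chain of the initiator C1q, read 12.82, 13.05, 12.93 and 13.01 against 7.73, 7.15, 7.76 and 8.19, and Cfb, which encodes factor B of the alternative pathway, was higher by 4.14 (SE 0.151). Cd55, which breaks down complement convertases, was lower by the difference of −1.0 (SE 0.211), with the complement receptor gene Cr2 as the other lower member. Of 22 scavenger and dead cell receptor genes 15 were higher and 0 lower (median 1.96). Msr1, a scavenger receptor for modified lipoproteins, was higher by 6.07 (SE 0.111), Mertk, the receptor kinase that engages dying cells through bridging ligands, by 5.01 (SE 0.13) and Marco, a receptor for particles and bacteria, by 4.85 (SE 0.146). Of 23 lipid uptake, storage and efflux genes 19 were higher and 0 lower (median 1.05). Cd36, a fatty acid and lipoprotein receptor, differed by 3.96 (SE 0.172), and Plin2, which coats lipid droplets, by 3.41 (SE 0.162).

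Chemokine ligand genes, with 11 of 24 higher and 3 lower, were led by Pf4, a platelet-type chemokine also made by macrophages, at 5.38 (SE 0.092), and by the neutrophil attractant Cxcl2, which was at least 4.41 higher. Ccl5, a ligand made by many lymphocytes, differed by −1.87 (SE 0.281). Matrix and protease genes gave 19 of 31 higher and 2 lower (median 0.65). Thbs1, which encodes the matrix protein thrombospondin 1, read 12.85, 12.95, 12.90 and 12.83 against 7.60, 7.38, 7.38 and 7.68, and Ltbp1, which anchors latent TGF-beta, was at least 6.26 higher. Timp3, an inhibitor of matrix proteases, differed by −1.84 (SE 0.213). Of 19 iron and heme genes 10 were higher and 2 lower. Slc11a1, a metal transporter of phagosomes, differed by 4.50 (SE 0.154), Hmox1, which degrades heme, by 2.78 (SE 0.125) and Tfrc, the transferrin receptor, by −1.16 (SE 0.119). The other probe sets of Tfrc differed by −0.84 to −0.12. The type I interferon list gave 14 of 21 higher and 2 lower (median 0.98), with Rtp4, a receptor transport gene induced by interferon, at 3.00 (SE 0.179) and Ifit2, an antiviral effector gene, at −1.45 (SE 0.296).

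Transcription factor genes separated the labels by lineage. In the CCR2+ arrays 19 of 26 measured macrophage transcription factor genes were higher and 2 lower (median 1.10), and of 20 measured B cell factor genes 1 was higher and 19 lower (median −1.58). Maf, a bZIP factor of resident macrophages, was higher by 4.37 (SE 0.224), with its other probe sets down to 0.35. Cebpb, which large peritoneal macrophages require, was higher by 3.45 (SE 0.091), with its other probe set at 0.54. Cebpa was higher by 3.20 (SE 0.362). Rxra, the partner receptor of retinoic acid and lipid-sensing nuclear receptors, was higher by 3.53 (SE 0.174). Runx1, which acts in many blood lineages, was lower by the fitted difference of −1.06 (SE 0.145), although the highest of its 6 probe sets read 0.22. Spi1, which encodes the myeloid and B cell factor PU.1, differed by 0.60 (SE 0.172, limma adjusted p = 0.0193). The value was 0.52 without CCR2+ array 1 and 0.57 without CCR2- array 1, both short of the threshold (limma adjusted p = 0.0533 and 0.0509).

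On the B cell side, Pax5, which fixes B cell identity, read 7.0, 7.20, 7.18 and 7.14 in the CCR2+ arrays and 10.31, 10.25, 10.21 and 10.31 in the CCR2- arrays. The labels did not overlap and differed by −3.14 (SE 0.081, limma adjusted p = 1.15e-09). Ebf1, which opens B cell chromatin with Pax5, differed by −4.40 (SE 0.181). Pou2af1, the B cell coactivator of octamer-binding proteins, differed by −5.64 (SE 0.155), and Spib, an Ets factor of B cells, by −5.31 (SE 0.114). Bcl11a, needed for early lymphoid development, differed by −4.92 (SE 0.111). Ikzf3, which encodes Aiolos, lay at the trp reading in the CCR2+ arrays and was at least 5.84 log2 units lower there. Klf2, a quiescence factor shared by lymphocytes and macrophages, was the member on the other side, at 0.48 (SE 0.135, limma adjusted p = 0.0176), and it did not pass without CCR2- array 4 (0.42, limma adjusted p = 0.0538).

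Genes of the lysosome and its regulators were higher in the CCR2+ arrays. Mitf read 10.98, 10.79, 11.31 and 11.19 against 7.20, 7.54, 7.80 and 7.12, without overlap. Mitf, Tfec and Tfe3 belong to the MiT family of basic helix-loop-helix factors, which bind E-box sites in lysosomal genes. The differences were 3.66 (SE 0.168) for Mitf, 1.10 (SE 0.165) for Tfe3, and at least 2.81 for Tfec, whose CCR2- arrays lay at the trp reading. Of 22 measured lysosomal hydrolase and membrane genes 16 were higher and 1 lower (median 1.13). Ctsd, which encodes the protease cathepsin D, read 13.20, 13.22, 13.22 and 13.19 against 10.25, 10.24, 10.50 and 10.26. Lgmn, which encodes the asparaginyl endopeptidase legumain, read 11.68, 12.01, 11.57 and 11.88 against 8.87, 8.41, 8.69 and 8.64. Neither gene overlapped between the labels, and the differences were 2.90 (SE 0.086) and 3.13 (SE 0.128). Ctsl, another cathepsin gene, was higher by 4.41 (SE 0.158) and Glb1, which encodes beta-galactosidase, by 2.75 (SE 0.185). Ctse, an aspartic protease gene also used in antigen processing, was the 1 member lower, at −0.88 (SE 0.186). Of 15 genes of the vacuolar ATPase, the proton pump that acidifies lysosomes, 11 were higher and 0 lower (median 0.43), led by Atp6v1a at 1.37 (SE 0.13).

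Promoters are shown for Ctsd and Lgmn because their windows hold the E-box GTCACGTG, a core of the sites that MiT factors bind in lysosomal genes. The windows searched run from 250 bases before to 50 after the RefSeq start site (GRCm38.p6). The 250 bases before the start are printed in the direction of transcription, and capitals mark the motif on either strand. Searched on both strands, it was present in 2.25% of all 32851 promoter windows, in a window of 3.77% of the 14453 tested genes that have any, and in those of 6 of 18 lysosomal genes with a window, namely Ctsa, Ctsd, Gla, Glb1, Lamp1 and Lgmn. It was also found in 2 of 10 vacuolar ATPase genes and in 1 of 44 genes of the B cell receptor, signalling and factor lists. A match is a run of letters and not a shown binding site. The Ctsd stretch is at chr7:142387828-142388077 on the minus strand and the Lgmn stretch at chr12:102439093-102439342 on the minus strand.
Ctsd: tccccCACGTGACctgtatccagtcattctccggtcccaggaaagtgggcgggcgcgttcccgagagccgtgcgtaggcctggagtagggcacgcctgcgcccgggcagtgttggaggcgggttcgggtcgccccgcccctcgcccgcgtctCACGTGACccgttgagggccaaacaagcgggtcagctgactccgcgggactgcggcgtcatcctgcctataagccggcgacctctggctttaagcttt
Lgmn: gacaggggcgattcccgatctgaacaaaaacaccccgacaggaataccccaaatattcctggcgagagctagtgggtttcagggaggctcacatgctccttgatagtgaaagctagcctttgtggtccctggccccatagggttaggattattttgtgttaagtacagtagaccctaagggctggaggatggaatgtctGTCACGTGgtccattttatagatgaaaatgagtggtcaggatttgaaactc

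The signalling chain of the B cell receptor was higher in the CCR2- arrays from the surface inwards. Of 13 receptor and coreceptor genes 1 was higher and 12 lower with the CCR2+ label (median −2.93), and of 18 signalling genes 2 were higher and 12 lower (median −0.91). Cd79a, a signal-transducing chain of the receptor, read 7.71, 7.80, 7.68 and 7.58 against 12.74, 12.80, 12.92 and 12.79. Cd79b, its partner, differed by −5.57 (SE 0.112). Blk, a Src-family kinase of B cells, differed by −5.96 (SE 0.139), and Blnk, the adaptor that links the kinase Syk to its targets, by −2.88 (SE 0.183). Stap1, an adaptor bound by the kinase Tec, differed by −4.03 (SE 0.142), and Ptpn22, a phosphatase that restrains antigen receptor signalling, by −3.82 (SE 0.161). Syk, which macrophages also use, differed by −1.39 (SE 0.124). Vav3, a guanine nucleotide exchange factor downstream of these kinases, was higher by 2.60 (SE 0.213), and Cd180, a Toll-like surface receptor, by 0.54 (SE 0.163). The Cd180 difference did not pass without CCR2+ array 2 or 4 or CCR2- array 1, 3 or 4, at 0.47 to 0.53 (limma adjusted p = 0.0556 to 0.0681).

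Genes that mark B cell subsets were both lower in the CCR2+ arrays. Of 11 measured B-1 cell genes 10 were lower and 1 higher, and of 9 follicular B cell genes 8 were lower and 1 higher. Among B-1 genes, Zbtb32, a transcriptional repressor, differed by −3.14 (SE 0.113) with its other probe set at −0.23, Bhlhe41, a regulator of B-1a self-renewal, by −1.28 (SE 0.178), and Cd5, the surface marker of B-1a cells, by −0.98 (SE 0.119). Cr2, which encodes complement receptor CD21 of follicular and marginal zone B cells, differed by −2.93 (SE 0.175). Bcl2, a survival gene of lymphocytes, differed by −2.83 (SE 0.195). Of 11 plasma cell genes 7 were lower and 1 higher, and Prdm1, which drives plasma cell differentiation, differed by −2.18 (SE 0.151).

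The octamer ATGCAAAT, which OCT2 binds together with the product of Pou2af1, was searched in the same way. It was present in 1.74% of all promoter windows, in 1.68% of tested genes with a window, and in 2 of 44 genes of the 3 B cell lists, Blnk and Prkcb, and it was also found in the window of Ccr6. The windows of Blnk and Ccr6 are shown because both genes were higher in the CCR2- arrays. They were picked after the matches were seen, as 3 of 11 motifs looked at are given here. The third, GAAA repeated with any 2 bases between, part of the interferon-stimulated response element, was in 3.44% of all windows, in 3.63% of tested genes with a window, and in 9 of 15 type I interferon genes. The Blnk stretch is at chr19:40994222-40994471 on the minus strand and the Ccr6 stretch at chr17:8235793-8236042 on the plus strand.
Blnk: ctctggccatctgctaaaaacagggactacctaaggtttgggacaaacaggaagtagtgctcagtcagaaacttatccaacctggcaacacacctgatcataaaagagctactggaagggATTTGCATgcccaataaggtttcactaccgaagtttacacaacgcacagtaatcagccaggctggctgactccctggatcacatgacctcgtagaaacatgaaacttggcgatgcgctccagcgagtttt
Ccr6: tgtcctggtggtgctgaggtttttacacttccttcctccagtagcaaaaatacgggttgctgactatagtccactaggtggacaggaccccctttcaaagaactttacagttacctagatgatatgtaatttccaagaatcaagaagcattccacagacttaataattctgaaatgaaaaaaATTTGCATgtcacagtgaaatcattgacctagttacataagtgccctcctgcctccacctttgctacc

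Chemoattractant receptors divided between the labels, with 8 of 21 higher and 7 lower in the CCR2+ arrays. Fpr2, a receptor for formylated peptides and lipid mediators, read 11.69, 11.87, 12.31 and 12.25 in the CCR2+ arrays and 6.89, 6.62, 6.77 and 6.80 in the CCR2- arrays. Cmklr1, the chemerin receptor, was higher by 4.56 (SE 0.181), and Ccr1, an inflammatory chemokine receptor of myeloid cells, by 2.52 (SE 0.168). Ackr3, which scavenges CXCL12, was at least 3.92 log2 units higher, with its CCR2- arrays at the trp reading. On the other side, Ccr6, which guides lymphocytes and dendritic cells to CCL20, read 7.31, 7.35, 7.30 and 7.22 against 12.19, 11.11, 12.20 and 12.08. Cxcr5, the follicle-homing receptor for CXCL13, differed by −5.09 (SE 0.135). Ccr7, the lymph node homing receptor, differed by −3.86 (SE 0.108), and Cxcr4, the CXCL12 receptor, by −2.83 (SE 0.258). For Cxcr5 and Cxcr4 the ligand gene lay in the opposite label. Cxcl13, the ligand of Cxcr5, was higher with the CCR2+ label by 5.26 (SE 0.145) and Cxcl12 by 2.79 (SE 0.213). Ackr3, which scavenges CXCL12, lay in the same label as Cxcl12.

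Ligand and receptor genes also lay in opposite labels for the B cell survival factor BAFF. Its gene Tnfsf13b was higher with the CCR2+ label by 1.93 (SE 0.137), and its receptor gene Tnfrsf13c was lower there by the difference of −4.78 (SE 0.125). Over 30 cytokine and growth factor genes 15 were higher and 7 lower. Tgfb2, a growth factor of large peritoneal macrophages, was higher by 6.19 (SE 0.233). Bmp2, a bone morphogenetic protein gene, read 10.75, 10.79, 10.59 and 10.44 in the CCR2+ arrays, at least 3.95 above the CCR2- arrays, which lay at the trp reading. Hgf, which encodes the ligand of the Met receptor, was higher by 3.89 (SE 0.35), and Igf1, an insulin-like growth factor gene, by 3.42 (SE 0.262). Ltb, which encodes the lymphoid organiser lymphotoxin beta, differed by −3.40 (SE 0.103), Il1b, an inflammatory cytokine gene, by −1.44 (SE 0.153), and Il18, another inflammasome product, by −1.02 (SE 0.086). Of 36 cytokine receptor genes 17 were higher and 9 lower. The neuropilin genes, coreceptors for VEGF and semaphorins, parted: Nrp1 differed by 2.89 (SE 0.235) and Nrp2 by −3.04 (SE 0.232), with all 4 probe sets of each gene on 1 side.

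Receptors for antibodies, microbes and sugars also fell on both sides. All 12 measured Fc receptor genes passed, 6 in each direction. Fcgr3, the activating IgG receptor of myeloid cells, read 12.93, 13.07, 13.09 and 13.11 against 8.31, 8.16, 8.87 and 9.15. Fcgr4, another activating IgG receptor, was higher by 3.57 (SE 0.316). Fcmr, the IgM receptor of B cells, was at least 4.21 log2 units lower, and Fcer2a, the low-affinity IgE receptor CD23, differed by −2.18 (SE 0.139). Of 21 Toll-like and NOD receptor pathway genes 15 were higher and 2 lower (median 0.90). Tlr13, which senses bacterial ribosomal RNA, was higher by 3.67 (SE 0.257), Tlr4, the endotoxin receptor, by 3.36 (SE 0.242), and Tlr2, a lipoprotein receptor, by 1.62 (SE 0.14). The other probe sets of Tlr4 reached down to −0.02. The 2 lower members were Tlr9, the receptor for unmethylated DNA, at 7.48, 7.65, 7.5 and 7.54 against 10.86, 10.91, 11.01 and 10.87, and Tlr1, which pairs with TLR2, at −1.89 (SE 0.128). Of 17 C-type lectin genes 9 were higher and 3 lower, with Cd72, a B cell inhibitory lectin, at −2.62 (SE 0.16). Siglecg and Cd22, inhibitory sialic acid receptors of B cells, differed by −4.84 (SE 0.093) and by at least 5.80 in the same direction, while Cd33, their myeloid relative, was higher by 4.23 (SE 0.177).

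**Figure D3:**
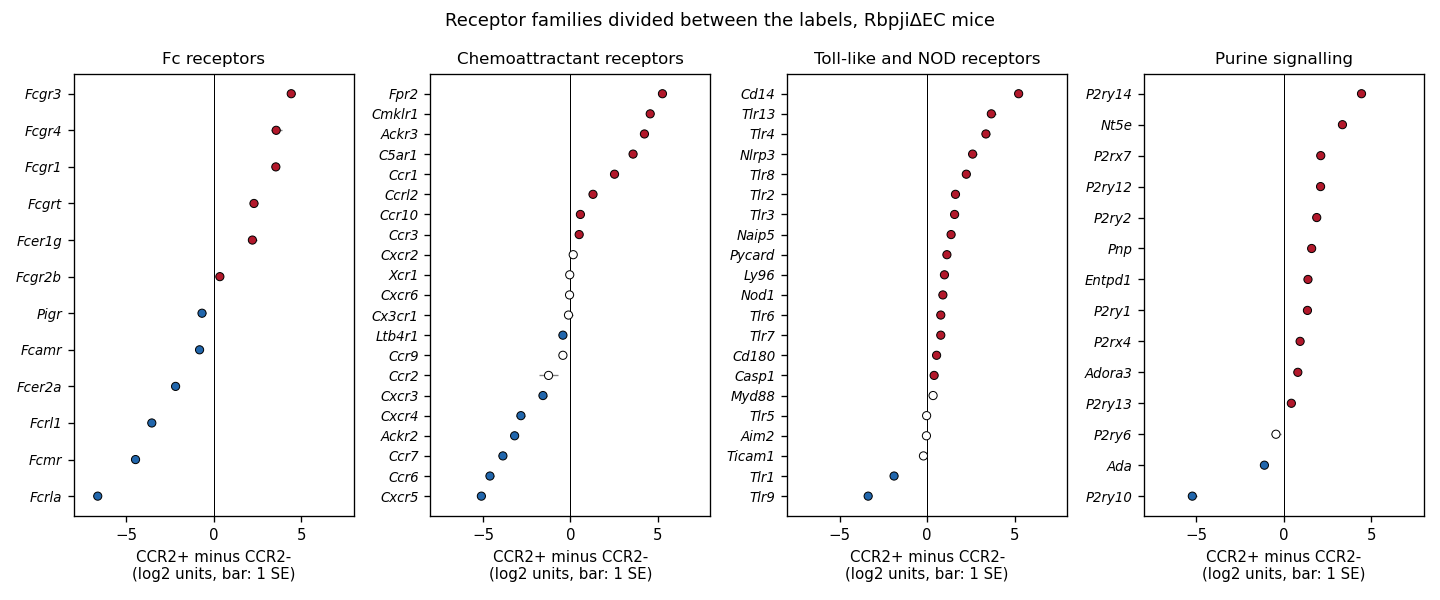
CCR2+ minus CCR2- difference in log2 units (x axis) for each measured gene of 4 receptor families, with bars of 1 limma SE. Filled points passed an adjusted p of 0.05. The families are Fc receptors (6 higher, 6 lower), chemoattractant receptors (8 and 7), Toll-like and NOD receptors (15 and 2) and purine signalling (11 and 2).

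Lipid mediator and purine genes were mainly higher in the CCR2+ arrays. Of 20 eicosanoid genes 14 were higher and 2 lower (median 2.18). Pla2g7, which inactivates platelet-activating factor, was higher by 5.74 (SE 0.13). Ptgis, which makes prostacyclin, read 12.54, 12.74, 12.42 and 12.58 against 7.99, 7.48, 8.40 and 8.09. Ptges, which makes prostaglandin E2, was higher by 3.03 (SE 0.183). Ptgs2, the inducible cyclooxygenase upstream of both, lay at the trp reading in both labels. Ptgs1, the other cyclooxygenase gene, was not among the measured genes. Hpgds, which makes prostaglandin D2, was lower by the difference of −1.29 (SE 0.171). Of 14 purine signalling genes 11 were higher and 2 lower (median 1.36). P2ry14, a receptor for UDP-sugars, was at least 4.33 log2 units higher, Nt5e, which makes adenosine, was higher by 3.35 (SE 0.197) with 1 of its 3 probe sets at −0.14, and P2rx7, an ATP-gated channel, by 2.11 (SE 0.128). P2ry10, a lysophosphatidylserine receptor of lymphocytes, read 5.99, 5.94, 5.91 and 6.17 against 10.40, 11.24, 11.54 and 11.75, at least 4.54 lower. Ada, which degrades adenosine, differed by −1.11 (SE 0.128).

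Retinoic acid genes were examined because GATA6 in these macrophages depends on that signal. Of 18 measured members 9 were higher and 2 lower (median 0.32). Dhrs3, a retinaldehyde reductase induced by retinoic acid, was higher by 4.02 (SE 0.183). Cyp26a1 and Cyp26b1, which degrade retinoic acid, were higher by 2.05 (SE 0.276) and 1.75 (SE 0.269). Rarg, a retinoic acid receptor, was higher by 2.09 (SE 0.223), and Aldh1a2, which makes retinoic acid, by 1.54 (SE 0.219). All 5 genes were above the range of the CCR2- arrays in every CCR2+ array. Of the other members, the 2 lower ones differed by less than 2-fold and 7 did not pass. Aldh1a1, of the same family as Aldh1a2, differed by −0.37 and did not pass.

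Coagulation genes, with 11 of 19 higher and 0 lower (median 0.90), held both procoagulant and anticoagulant members. F10, which encodes factor X, was higher by 5.35 (SE 0.113), and F7, factor VII, was at least 3.98 log2 units higher. Pros1, which encodes the anticoagulant protein S and is also a ligand of the receptor MerTK, was higher by 4.57 (SE 0.128), Thbd, which encodes thrombomodulin, by 4.16 (SE 0.127), and Tfpi, the tissue factor pathway inhibitor, by 2.44 (SE 0.157).

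Metabolic genes did not all point to 1 label. Arg1, which splits arginine into urea and ornithine, read 12.70, 11.62, 12.53 and 12.79 against 7.69 to 7.78. The arginine transporters went apart: Slc7a2 differed by 3.98 (SE 0.163) and Slc7a1 by −2.39 (SE 0.106). Of 21 glycolysis and hypoxia genes 11 were higher and 3 lower (median 0.56). Egln3, an oxygen-sensing hydroxylase gene, was higher by 3.71 (SE 0.246), while Slc2a1, the glucose transporter GLUT1, differed by −2.13 (SE 0.097) and Adm, the peptide hormone adrenomedullin, by −2.86 (SE 0.385). Of 20 cholesterol and fatty acid synthesis genes 5 were higher and 6 lower. Scd1, a fatty acid desaturase, read 7.68, 7.59, 7.88 and 7.47 against 12.59, 12.64, 12.62 and 12.62, the reverse of the lipid carrier gene Fabp4, which differed by 5.89 (SE 0.12). Of 23 glutathione and antioxidant genes 12 were higher and 2 lower, with Srxn1, which repairs peroxiredoxins, at 3.21 (SE 0.189), Gsr, which regenerates glutathione, at 3.08 (SE 0.174) and Gstp1, a glutathione transferase, at −1.06 (SE 0.169).

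Housekeeping lists showed small median differences. Of 26 oxidative phosphorylation genes 6 were higher and 3 lower (median 0.08, and 0.42 under median centring). Of 17 cytosolic ribosomal protein genes 0 were higher and 8 lower (median −0.25), and that direction flipped to 0.02 under median centring. Rps19 showed the largest of these differences, at −0.72 (SE 0.097). Of 26 proliferation genes 1 was higher and 7 lower (median −0.36), 4 of the lower ones by at least 2-fold. Ccne1, which encodes the cell cycle entry protein cyclin E1, differed by −2.15 (SE 0.115). Actb differed by 0.07 and Gapdh by 0.24, and neither passed, although Gapdh did so without CCR2+ array 1 (0.28, limma adjusted p = 0.0474).

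Adhesion, cytoskeletal and T cell regulatory genes were mixed. Of 25 integrin and adhesion genes 13 were higher and 6 lower. Itga6, a laminin-binding integrin subunit, was higher by 3.32 (SE 0.082) and Selp, which encodes P-selectin, by 5.75 (SE 0.092). Pecam1, an adhesion gene of endothelium and many leukocytes, read 7.13, 7.78, 7.12 and 7.35 against 11.67, 11.43, 11.33 and 11.35, and Itgal, a subunit of the lymphocyte integrin LFA-1, differed by −1.81 (SE 0.124). Coro1a, an actin regulator of leukocytes, differed by −4.45 (SE 0.102). Of 19 checkpoint genes 9 were higher and 9 lower. Vsir, which encodes VISTA, was higher by 1.90 (SE 0.125) and Cd200r1, an inhibitory receptor of myeloid cells, by 2.21 (SE 0.255). Cd200, its ligand, was at least 2.47 lower, Btla, a lymphocyte inhibitory receptor, differed by −3.37 (SE 0.12), and Ctla4, an inhibitory receptor of T cells that B-1 cells also carry, was at least 3.02 lower. Cd274, which encodes PD-L1, differed by −1.69 (SE 0.194), and Pdcd1lg2, which encodes PD-L2, was at least 2.00 lower. Gimap genes, GTPases of lymphocytes, and Schlafen genes gave 4 of 15 higher and 8 lower. All 8 Gimap genes were lower, from −1.81 for Gimap9 to −6.00 for Gimap4, with Gimap7 and Gimap8 at the trp reading in the CCR2+ arrays, and Slfn4, a Schlafen gene of myeloid cells, was at least 6.49 higher.

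Of 14 MHC class II presentation genes 1 was higher and 11 lower (median −1.57). The differences were uneven. Ciita, the master regulator of the class II genes, read 7.65, 7.67, 7.35 and 7.74 against 10.30, 10.50, 11.10 and 10.96. H2-Ob, part of the peptide-loading modulator of B cells, differed by −4.26 (SE 0.116). H2-Aa, a chain of the class II molecule itself, read 11.71, 11.22, 12.31 and 12.55 against 12.70, 12.69, 12.87 and 12.78, a difference of −0.81 (SE 0.247, limma adjusted p = 0.0248) with probe sets from −1.74 to 0.51. It did not pass without CCR2+ array 1 or CCR2- array 3 or 4, at −0.80 to −0.74 (limma adjusted p = 0.0547 to 0.064), nor under median centring, no scaling or hybridization controls, at −0.46 to −0.18. Cd86, a costimulatory ligand, was the 1 member higher, at 1.10 (SE 0.167).

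Of 23 Notch pathway genes the CCR2+ arrays had 7 higher and 5 lower (median 0.10). Jag1, a Notch ligand, read 10.90, 10.88, 10.85 and 10.92 against 7.40, 6.98, 7.47 and 6.93. Notch1, a receptor, was higher by 1.79 (SE 0.138). Dtx1, a Notch regulator and target of B cells, read 7.04, 6.87, 6.92 and 6.90 against 10.77, 10.50, 10.46 and 10.41. Both the ligand and the receptor lay above the CCR2- range in every CCR2+ array, and Dtx1 lay below it.

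Markers of the other cell types that the gate could hold were summed as linear intensities. The 6 measured B cell markers summed to 856 to 948 in CCR2+ arrays against 36220 to 38362, and the 6 large peritoneal macrophage markers to 49367 to 51393 against 2981 to 3323. The part of B cell RNA in any difference above was not tested. Of 21 T and NK cell genes 0 were higher and 8 lower. Cd2, an adhesion receptor of T, NK and other lymphoid cells, differed by −5.77 (SE 0.099). The T cell receptor subunit genes Cd3e and Cd3d did not pass, at 6.25 to 6.69 and 7.27 to 7.46 over all 8 arrays. Cd3e lay at or under the trp reading of 6.69, where a lower level could hardly show. Of the 21 genes 5 had means at or under that reading in both labels. Cd3e did pass with median centring (−0.44, limma adjusted p = 0.00667), with trend and robust variances (−0.23, 0.0326) and with the mean of probe sets (−0.23, 0.0484). Of 19 dendritic cell genes 14 were lower and 1 higher, with Flt3, the receptor of their growth factor, at −1.97 (SE 0.146), and Ccr7 and Ly6d of that list are also B cell genes. Il5ra, an interleukin 5 receptor chain of eosinophils and B-1 cells, was at least 4.32 lower. None of the 4 eosinophil markers was called lower, but 3 of them had means at or under the trp reading in both labels. A lower level could hardly show in those 3, so nothing is read from them about Il5ra.

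Of 13 neutrophil genes 5 were higher and 1 lower. Csf3r, the receptor of the growth factor G-CSF, was higher by 3.30 (SE 0.131). S100a8, another member of that list, was higher by 0.53 (SE 0.102). Its mean was 7.39 for the CCR2+ label against 6.86, both little above the trp reading of 6.69. Linear sums over the 5 measured neutrophil markers overlapped, with 660 to 696 for the CCR2+ label against 591 to 711. Of 15 tumour epithelial and mesothelial genes 1 was higher and 4 lower, with Epcam, an epithelial adhesion gene, at −1.72 (SE 0.205), its other probe set at −0.19, and Krt18, a keratin gene, at −1.15 (SE 0.216). The endothelial cadherin gene Cdh5 read 6.40 to 6.58 over all 8 arrays and the collagen gene Col1a1 7.47 to 7.70, without a called difference. Cdh5 lay under the trp reading in every array, where a lower level could hardly show. The 3' minus 5' signal of actin, a sign of RNA quality, averaged 0.385 against 0.312 in the CCR2- arrays (exact permutation p = 0.229, two-sided), and that of Gapdh 0.19 and 0.15 (exact permutation p = 0.629). Hybridization controls, which are added in fixed amounts, read 11.7 and 12.1 after normalization, lower with the CCR2+ label (exact permutation p = 0.0286, the smallest that 4 against 4 arrays allow). Before normalization their log2 means were 11.91 to 12.18 with the CCR2+ label against 11.77 to 11.89, so the direction depends on the scaling.

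**Figure D4:**
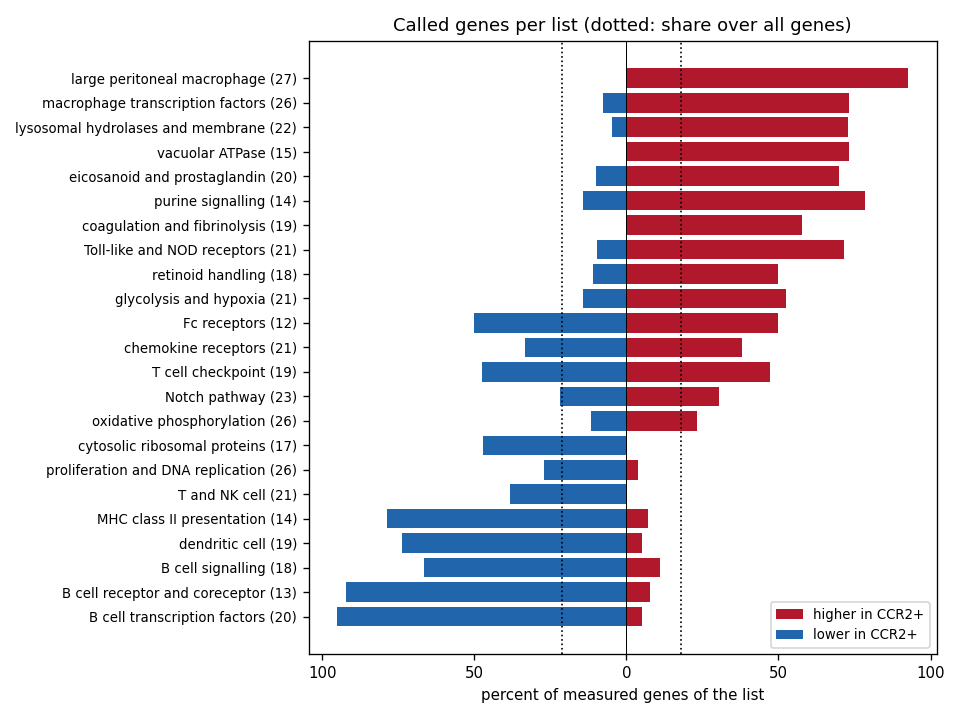
Number of measured genes higher (right) and lower (left) in the CCR2+ arrays for lists described in the text, as percent of the measured genes of each list, with the number measured in brackets. The dotted lines mark the shares over all genes, 17.9% higher and 21.1% lower. Macrophage, lysosome, eicosanoid and coagulation lists extend to the right, B cell and MHC class II lists to the left, and Fc and chemoattractant receptors to both sides.

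The arrays of a label were not uniform. A range over 2 log2 units was found within the CCR2+ arrays for 29 genes and within the CCR2- arrays for 31. Genes named for their variation within a label were picked after their values were seen and carry no test of that variation. The second principal component, with 4.31% of the variance, placed CCR2+ arrays 1 and 2 and CCR2- array 1 on 1 side, at 15.6 to 17.6, and CCR2+ arrays 3 and 4 and CCR2- arrays 3 and 4 on the other, at −16.9 to −9.6. CCR2- array 2 lay between, at 1.9.

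The interferon-inducible genes Gbp8, Iigp1 and Ifit1 read higher in CCR2+ arrays 3 and 4 than in arrays 1 and 2. Gbp8, a guanylate-binding protein gene of the interferon response, read 7.77, 6.77, 9.93 and 10.75 in the CCR2+ arrays. Its CCR2- arrays, at 7.98, 8.75, 8.79 and 8.90, lay between these extremes. Iigp1, an immunity-related GTPase gene, read 10.38, 9.93, 11.64 and 11.98, and Ifit1, an antiviral effector gene, 7.93, 8.00, 9.43 and 9.51. The cytokine gene Il6 followed the same pattern at 8.45, 8.25, 10.17 and 9.95, as did Plac8, a gene of monocytes and lymphocytes, at 8.11, 8.25, 9.78 and 10.71. Both pairs stayed on their side of the CCR2- arrays for Il6, at least 2.52 higher, and for Plac8, which differed by −4.03 (SE 0.497). The interferon gamma list as a whole gave 3 of 12 higher and 0 lower, with 9 not passing.

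Another set ran the other way and was higher in CCR2+ arrays 1 and 2. F13a1, which encodes the clot-stabilising factor XIII A chain of monocyte-derived cells, read 10.18, 11.71, 8.08 and 8.35. Tgfbi, a matrix protein gene, read 12.44, 13.03, 10.85 and 11.62, and Mmp9, a gelatinase gene, 8.73, 9.78, 7.83 and 7.84. Cd163, the haemoglobin scavenger receptor gene, read 9.50, 9.29, 7.84 and 8.07. These 4 genes passed between the labels, with SEs of 0.369 to 0.694, against 0.121 for Adgre1. Cd163, at 1.30 (SE 0.41), did not pass without CCR2+ array 1 or 2 or CCR2- array 1, 3 or 4, at 1.01 to 1.24 (limma adjusted p = 0.0704 to 0.0808).

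Arrays numbered 2 stood low for some genes in both labels. Cpe, a prohormone-processing carboxypeptidase gene, read 9.18, 6.09, 9.18 and 8.45 in the CCR2+ and 8.98, 6.34, 10.26 and 10.16 in the CCR2- arrays. Tm4sf1, a surface gene of endothelial and tumour cells, read 8.35, 6.83, 9.11 and 8.57 against 8.57, 6.75, 9.80 and 9.50. Aldh1a1, an aldehyde dehydrogenase gene, read 8.30, 6.29, 8.28 and 8.14 against 7.97, 6.36, 9.14 and 9.02, and Col3a1, a fibrillar collagen gene, 7.95, 6.52, 8.51 and 7.07 against 8.24, 6.68, 9.40 and 9.33. Wt1, a transcription factor of mesothelium, read 7.60, 6.41, 7.59 and 7.46 against 7.30, 6.33, 8.33 and 8.33. In all, 21 of the 18194 genes tested had array 2 below the other 3 by over 0.5 in both labels. The other array numbers were not counted in this way. Over all genes the deviations of the arrays numbered 2 correlated at 0.04 between the labels, the lowest of the same-numbered pairs. None of the 5 genes named here passed between the labels. Col3a1 passed with CCR2- array 2 left out, at −1.49 (limma adjusted p = 0.0381). CCR2- array 2 was also the array with the highest Ccr2, 10.69. The source of the low values in the arrays numbered 2 was not tested.

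**Figure D5:**
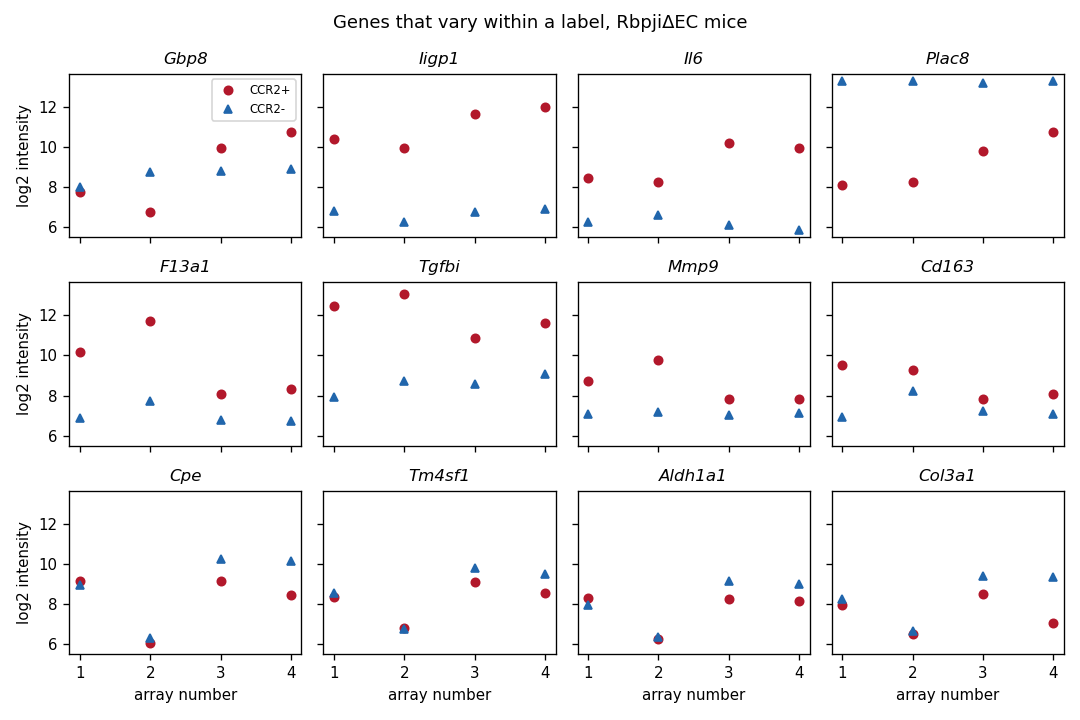
Log2 intensity (y axis) of 12 genes by array number (x axis) in the CCR2+ (circles) and CCR2- (triangles) arrays of RbpjiΔEC mice. Gbp8, Iigp1, Il6 and Plac8 are higher in CCR2+ arrays 3 and 4, F13a1, Tgfbi, Mmp9 and Cd163 are higher in CCR2+ arrays 1 and 2, and Cpe, Tm4sf1, Aldh1a1 and Col3a1 are lowest in array 2 of both labels.

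Whether the label difference depends on genotype was tested as an interaction over all 16 arrays, of which 8 came from mice named only as control in the titles, with the same strain, sex, tamoxifen dose and tumour. limma called 0 of 18194 genes (0%), 555 had an unadjusted p under 0.05, and the smallest adjusted p was 0.999. The label difference of Slfn4 was 6.62 in RbpjiΔEC and 5.45 in control mice, that of F13a1 2.55 and 1.01, and that of Krt18 −1.15 and −0.36, each without a called interaction. Genes called in opposite directions in the 2 genotypes numbered 2. Sfrp4, a secreted Wnt inhibitor gene, differed by −0.53 in RbpjiΔEC and 0.37 in control mice. Cbln2, a synaptic organiser gene, differed by 0.30 and −0.28, with RbpjiΔEC levels at 6.30 to 6.81, near the trp reading. Against that reading Cbln2 was only at least 0.04 higher with the CCR2+ label in RbpjiΔEC mice. In RbpjiΔEC mice Sfrp4 did not pass without CCR2+ array 1 or CCR2- array 1 or 3, nor Cbln2 without CCR2+ array 1 or 4 or CCR2- array 1 or 2, with limma adjusted p-values of 0.0506 to 0.0685. Both calls also depended on the setting. Cbln2 did not pass with median centring (0.13, limma adjusted p = 0.314), hybridization controls (0.22, 0.261), the replicate block (0.30, 0.0555) or both arrays numbered 2 left out (0.29, 0.0908). Sfrp4 did not pass without scaling (−0.28, limma adjusted p = 0.212), with array weights (−0.35, 0.0514) or with both arrays numbered 2 left out (−0.40, 0.0701).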

How the data were processed

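RNA of sorted cells was hybridized to Affymetrix mouse genome arrays. The deposited values were linear probe set intensities, and how the authors made them was not given in the sources used here. Of 45101 probe sets, 34958 carried 1 gene symbol in the platform annotation, 932 several and 9211 none. Only the first kind was used. Intensities were log2 transformed and quantile normalized over the 8 arrays. The probe set with the highest mean stood for each of the 9012 genes with several, which gave 18194 genes and no intensity filter. The labels were compared with limma 3.58.1 in R 4.3.3 (lmFit and eBayes, two-sided, Benjamini-Hochberg over all genes, threshold 0.05), without a block, and the code was tested on simulated data. SEs are limma's. Exact permutation tests, which can give no two-sided p under 0.0286 here, served for single values outside limma. The titles do not say whether a shared number marks 1 mouse, and the values do not settle it. Same-numbered arrays of the labels correlated at 0.04 to 0.24 in their deviations, and differently numbered arrays at −0.16 to 0.07. List medians are of log2 differences.

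The members, lists, comparisons and alternatives were chosen with earlier results of these data known. Named genes are up to 5 called members per direction of each list, the 15 largest called differences per direction without overlap, interaction calls, genes called oppositely in the genotypes, and a set of gate, marker and reference genes. Named outside that rule, after their values were seen, were Aldh1a1, Aldh1a2, Bhlhe41, Cd163, Cd3d, Cd5, Cebpa, Col3a1, Cpe, Ctsa, Cxcl12, Cyp26b1, F7, Gbp8, Gimap9, Gla, H2-Aa, Ifit1, Lamp1, Pax5, Prkcb, Ptges, Ptgs2, Spi1, Syk, Tfe3, Tfec, Tfpi, Tgfbi, Tlr2, Tm4sf1, Tnfsf13b and Wt1. The alternatives were 4 scalings, the mean of probe sets, leaving out the lowest tercile, an offset of 32, trend and robust variances, array weights, the replicate block and each array left out. Centring on hybridization controls, one of the scalings, and leaving out both arrays numbered 2 were added after the data were seen.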

Additional observations from a re-analysis of the deposited data

Results flagged for a closer look

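In some genes named above, 1 array stood far from the other 3 of its label: the gap to its nearest neighbour, divided by the range of the label, passed Dixon's critical value for a group of 4. This held for 22 of 412 labels of genes checked, and chance alone gives about 1 in 20. The values are log2 intensities.

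CCR2+ array 2 was the lone array most often. Some of the genes checked, among them Aldh1a1 and Wt1, were named after their values were seen, so nothing is read from that order. It was low for Aldh1a1 at 6.29 (nearest 8.14), for Wt1 at 6.41 (nearest 7.46) and for Cd274 at 8.10 (nearest 8.93). It was high for the B cell genes Cd79b at 7.64 (nearest 7.25) and Ltb at 7.08 (nearest 6.80), for Ptpn22 at 8.78 (nearest 8.25) and for Tap2 at 8.87 (nearest 8.55). CCR2+ array 1 was high for Jund at 11.60 (nearest 9.55), Prkcb at 11.66 (nearest 11.58) and Cd69 at 6.20 (nearest 6.10, below the trp reading) and low for Fas at 8.57 (nearest 9.47). CCR2+ array 3 was low for Spib at 6.49 (nearest 6.76).

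CCR2- array 2 was low for Ccr6 at 11.11 (nearest 12.08) and Slc7a2 at 6.65 (nearest 7.31), and high for F13a1 at 7.71 (nearest 6.87) and Slc2a1 at 11.53 (nearest 11.36). CCR2- array 1 was low for Atp6v1a at 10.94 (nearest 11.32), Epcam at 8.15 (nearest 8.93), Gbp8 at 7.98 (nearest 8.75) and Ly6d at 12.15 (nearest 12.59). CCR2- array 3 was high for Ctsd at 10.50 (nearest 10.26), and CCR2- array 4 for Ms4a4c at 11.70 (nearest 11.14).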

How the results depend on the processing

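Scaling moved the counts most. The 3260 higher and 3838 lower genes became 6975 and 1437 with the deposited values unscaled, and 4231 and 2071 with centring on the hybridization controls. The share of calls that were higher was 45.9%, and 51%, 82.9% and 67.1% with median centring, no scaling and the hybridization controls. Of the calls without scaling, 4689 were shared in direction and 93 opposite. The other settings left both counts within 1.5 times. Leaving out 1 array gave 2935 to 3221 higher and 3380 to 3883 lower genes, and 0 to 0 interaction calls. With the replicate block there were 3290 higher, 3855 lower and 0 interaction calls, although the numbers are not shown to pair arrays, and not every array correlated best with its own number. Leaving out both arrays numbered 2 gave 2883 higher and 3427 lower.

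Of 206 named genes 180 kept their direction and their side of the threshold in every setting that gave a value. Calls were lost without scaling for 7 genes, Cd55 (−0.34), Ctse (−0.32), Gstp1 (−0.41), H2-Aa (−0.18), Rps19 (−0.04), Runx1 (−0.47) and Sfrp4 (−0.28). Hybridization controls lost 5, Cbln2 (0.22), Cd55 (−0.54), Ctse (−0.53), H2-Aa (−0.38) and Rps19 (−0.24), and median centring 4, Cbln2 (0.13), Ctse (−0.61), H2-Aa (−0.46) and Rps19 (−0.33). Calls were gained without scaling by Actb (0.56), Gapdh (0.79) and Ptprc (0.69), with hybridization controls by Ccr2 (−1.15), Gapdh (0.58) and Ptprc (0.48), and with median centring by Cd3e (−0.44) and Gapdh (0.50). Of the named genes the block changed 2 calls, gaining Ccr2 (−1.25) and losing Cbln2 (0.30). Signs changed for 8 genes with no call in the 8-array comparison, and the cause was not tested. Cdh5 was −0.19 with median centring, −0.07 with the mean of probe sets, −0.02 with array weights, −0.10 with hybridization controls and −0.02 without arrays 2. Col1a1 was 0.23 unscaled, 0.01 with the mean of probe sets and 0.02 with hybridization controls. Cd3d was 0.20 unscaled and 0.02 without arrays 2. Ptgs2 was −0.21 with median centring and −0.13 with hybridization controls, and Ptprc −0.63 with the mean of probe sets, where it passed (limma adjusted p = 0.000789). Leaving out 1 array gave −0.97 to 0.12 for Aldh1a1, −0.06 to 0 for Cd3d, −0.03 to 0.03 for Cdh5, −0.06 to 0 for Col1a1, −0.44 to 0.87 for Gbp8 and −1.08 to 0.03 for Tm4sf1. List medians also changed sign between scalings, among the lists described above those of small peritoneal macrophage and monocyte, T and NK cell, neutrophil, Fc receptor, chemoattractant receptor, cholesterol synthesis, ribosomal, proliferation, apoptosis and heat shock genes. No direction is read from these medians.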

Other observations

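Stress and immediate early genes, which are known to respond to cell handling as well as to stimuli, did not move together. The 12 heat shock and dissociation stress genes gave 3 higher and 5 lower with the CCR2+ label. Hspa1b, an inducible heat shock protein gene, read 9.74, 9.37, 9.24 and 8.89 against 6.38, 6.71, 7.10 and 6.79, with its other probe sets down to 0.14. Ddit4, a stress-induced brake on the growth kinase mTOR, read 7.29, 7.53, 8.89 and 7.90 against 10.15 to 11.78. Of 22 immediate early and feedback genes 6 were higher, 5 lower and 11 not called. Over all genes 17.9% were higher and 21.1% lower, so nothing is read from the split of this list. Dusp1, a phosphatase gene that ends MAP kinase signals, was higher by 3.25 (SE 0.202, limma adjusted p = 7.16e-07). Cd69, an early activation marker of lymphocytes, was at least 3.53 lower, with its CCR2+ arrays at 6.09 to 6.20. These genes were apart in every array of a label. Jund differed by −2.45 (SE 0.458), with CCR2+ array 1 at 11.60 and the other CCR2+ arrays at 9.32 to 9.55, and its other probe set differed by 0.21.

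The Ms4a family, tetraspan-like membrane proteins encoded in a cluster with Ms4a1, was divided, with 3 of 11 genes higher and 6 lower. Ms4a8a read 12.57, 12.61, 13.06 and 12.93 against 7.28, 7.53, 7.33 and 7.35, the reverse of Ms4a1. Ms4a6d, a myeloid member, read 11.65 to 12.36 in the CCR2+ arrays and 7.03, 7.01, 8.58 and 10.67 in the CCR2- arrays, with its other probe sets down to −0.02. Of 18 apoptosis regulators 5 were higher and 4 lower, with Fas, the death receptor gene, at 2.26 (SE 0.212). Of 26 actin and migration genes 12 were higher and 7 lower. Fgd4, an activator of the GTPase CDC42, was higher by 4.05 (SE 0.199), and Gsn, which encodes the actin-severing protein gelsolin, differed by −2.37 (SE 0.284), with its 6 probe sets from −2.37 to −0.06. Of 13 MHC class I presentation genes 2 were higher and 5 lower, and Tap2, a peptide transporter subunit, differed by −1.13 (SE 0.103).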
